A study of Mus musculus with 17 samples.

Results

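The Krüppel-like factors (KLFs) described here were 8 genes of 1 transcription factor family, Klf2, Klf3, Klf4, Klf6, Klf9, Klf10, Klf13 and Klf15, chosen as a list by name, with earlier results of these data known. Of these 8, 7 were found among the 18256 named genes of the array, each with 1 probe. No probe carried the name of Klf3, which was not analysed here. The array was read in adult mouse hippocampal neural precursor cells during the first 720 min after basic fibroblast growth factor (bFGF) and epidermal growth factor (EGF) were withdrawn, with 1 Illumina array at each of 17 times.

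KLFs bind GC-rich and CACCC sequences through zinc fingers at their carboxyl end, while their amino ends differ and recruit either coactivators or corepressors. Several are known as quickly regulated factors that place a cell's response to growth factors, hormones or mechanical flow into its transcription programme. In the nervous system the family is known from axon growth, which Klf6 and Klf7 promote and Klf4 and Klf9 restrain in retinal or cortical neurons of rodents, and Klf9 is also known from the late maturation of dentate granule neurons.

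The arrays were taken at 0, 15, 30, 45, 60, 90, 120, 150, 180, 240, 300, 360, 420, 480, 540, 600 and 720 min. The array at 0 min came from the proliferating culture in Neurobasal medium with B27, GlutaMAX, bFGF and EGF, and all others came from cells without the 2 factors. No strain, sex or age beyond "adult" was labelled, the growth factors were not kept on in any later sample used here, and nothing says whether the arrays came from separate cultures. Values are log2 signals as deposited. For testing, neighbouring times were joined into windows of 60 to 120 min (3 arrays), 150 to 240 min (3 arrays), 300 to 420 min (3 arrays) and 480 to 720 min (4 arrays), each set against 0 to 45 min (4 arrays). Neighbouring times stood in for replicates, so an adjusted p measures the spread within windows, or around a curve, of 1 series and not the spread between cultures. The 4 comparisons with 0 to 45 min share those 4 arrays.

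The cells carried most of the listed markers of their label. Of 9 neural precursor markers on the array, 7 lay above the filter on dim probes (a mean log2 signal of at least 6.41, the median of all probes), among them Nes at a mean of 11.47 and Sox2 at 9.66. Pax6 (5.90) and Msi1 (5.60) lay below it. Of the oligodendrocyte lineage and astrocyte markers, 6 of 9 and 6 of 8 also lay above it. Such counts do not single out precursor cells. Endothelium and macrophages are known for high Klf2 and Klf4. Of their markers, 0 of 8 for microglia and macrophages and 3 of 11 for endothelial and mural cells (Tek, Flt1 and Acta2) lay above the filter. Whether such cells were present was not tested. The defining endothelial genes Pecam1 and Cdh5 had mean log2 signals of 6.07 and 6.17, below the filter.

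Of the 7 KLF genes with a probe, Klf4, Klf6, Klf9 and Klf13 lay above the filter and Klf2, Klf10 and Klf15 below it. The 4 genes above the filter moved early, in opposite directions and for different lengths of time. Klf4 was 2.50-fold above its baseline at 150 to 240 min and back inside the range of its baseline arrays from 360 min on. Klf13 was 2.54-fold above its baseline at 150 to 240 min and still 1.98-fold above its baseline at 480 to 720 min. Klf9 and Klf6 fell, by 2.32-fold and 1.95-fold at 150 to 240 min, and both stood higher again at 480 to 720 min than at 150 to 240 min. All 4 passed the test over the whole time course (moderated F test of a smooth curve, adjusted p under 0.05), as did 61.9% of the 9940 features tested, so that this count says little about the family.

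The promoters of these 4 genes are shown because they are the members whose signal changed. Motifs of forkhead, ATF and CREB, and E-box factors were looked for in them, among other motifs. Each sequence is the 250 bases before the annotated start, 5′ to 3′ on the gene's strand, from RefSeq on GRCm38.p6. Of the 8 listed genes, 7 had an entry, with Klf10 as the exception. The windows lie at chr4:55532476-55532725 (minus strand) for Klf4, chr13:5861239-5861488 (plus strand) for Klf6, chr19:23140976-23141225 (plus strand) for Klf9 and chr7:63938916-63939165 (minus strand) for Klf13. Capitals mark matches on either strand to the forkhead motif GTAAACA, the CRE core TGACGT (the motif of ATF and CREB factors) and the E-box CACGTG.
Klf4: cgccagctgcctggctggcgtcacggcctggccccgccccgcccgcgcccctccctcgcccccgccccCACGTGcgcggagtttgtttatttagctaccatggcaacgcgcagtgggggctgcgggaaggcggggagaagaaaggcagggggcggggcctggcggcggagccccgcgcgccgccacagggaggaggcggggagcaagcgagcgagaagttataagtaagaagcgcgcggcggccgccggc
Klf6: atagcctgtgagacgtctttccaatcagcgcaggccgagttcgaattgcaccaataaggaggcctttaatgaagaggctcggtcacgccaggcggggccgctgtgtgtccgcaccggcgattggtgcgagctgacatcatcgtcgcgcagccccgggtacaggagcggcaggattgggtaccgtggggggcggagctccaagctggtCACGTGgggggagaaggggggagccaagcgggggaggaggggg
Klf9: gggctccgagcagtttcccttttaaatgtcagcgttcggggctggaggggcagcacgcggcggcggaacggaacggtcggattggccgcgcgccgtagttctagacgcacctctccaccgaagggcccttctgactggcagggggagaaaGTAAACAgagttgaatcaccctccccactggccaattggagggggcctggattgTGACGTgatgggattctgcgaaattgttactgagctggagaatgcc
Klf13: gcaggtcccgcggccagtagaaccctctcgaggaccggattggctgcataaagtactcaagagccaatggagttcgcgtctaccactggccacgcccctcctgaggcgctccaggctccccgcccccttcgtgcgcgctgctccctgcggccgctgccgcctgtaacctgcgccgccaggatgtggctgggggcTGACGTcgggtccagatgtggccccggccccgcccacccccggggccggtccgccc

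The promoters of Klf4 and Klf6 each held an E-box, which 6.02% of 32851 promoter windows of the same length held. In Klf6 it lay at -43 to -38 from the start, and in Klf4 at -182 to -177. Klf9 held a forkhead motif at -100 to -94, found in 3.17% of windows. Klf9 and Klf13, near relatives that moved in opposite directions, both held a CRE core, at -46 to -41 in Klf9 and at -56 to -51 in Klf13, against 6.47% of all windows. The GC box GGGCGG, a motif that KLF and SP factors themselves can bind, was matched 4 times in Klf4, 3 times in Klf13 and once in Klf6, with no match in the Klf9 window, and 32.7% of all windows held at least 1. The CACCC box CCACCC was matched once in Klf13, against 28.1% of windows with a match. The promoters were GC-rich, with 74.0% for Klf4, 71.6% for Klf13, 64.8% for Klf6 and 59.6% for Klf9, against a median of 52.4% over all windows. Among the dim members, whose promoters are not printed, the Klf2 window held a MEF2 motif at -118 to -109, found in 0.508% of windows, and the Klf15 window held 2 E-boxes. The MEF2 motif had 0 matches in the windows of Klf4, Klf6, Klf9 and Klf13. A CArG box (CC and GG around a run of A or T) had 0 matches in any member window, against 1.47% of all windows. These are matches of letters and not measured binding.

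Klf4 is known as a reprogramming factor and as a regulator of the cell cycle exit of epithelial and vascular cells. Its log2 signal was 7.48, 7.39, 7.55 and 7.78 at 0, 15, 30 and 45 min. It reached 8.01, 8.82 and 9.17 at 60, 90 and 120 min and stayed at 9.11, 9.01 and 8.50 at 150, 180 and 240 min. All 6 of these arrays lay above the 4 baseline arrays. At 300, 360 and 420 min the signal was 8.18, 7.65 and 7.56, and at 480, 540, 600 and 720 min it was 7.50, 7.73, 7.61 and 7.77, inside the range of 0 to 45 min. The highest array, at 120 min, stood 1.62 log2 units (3.07-fold) above the baseline mean.

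At 60 to 120 min Klf4 averaged 8.66 ± 0.59, against 7.55 ± 0.17 at 0 to 45 min (SD over 3 and 4 arrays), a log2 change of 1.11 (SE 0.20, limma adjusted p = 0.0018). In this window 1.15% of all features passed in the upward direction and 0.986% downward. Of the 4 KLF genes, Klf4 and Klf13 rose, Klf6 fell and Klf9 did not pass. Klf4 was then 1.32 (SE 0.20) above baseline at 150 to 240 min, with a mean of 8.87 ± 0.33 (SD, 3 arrays, adjusted p = 2.6e-05). The change at 300 to 420 min was 0.25 (95% interval -0.16 to 0.66, adjusted p = 0.34) and that at 480 to 720 min 0.10 (interval -0.27 to 0.48, adjusted p = 0.66). The return itself passed the test. The late window lay 1.01 below 60 to 120 min (adjusted p = 0.00021) and 1.22 below 150 to 240 min (adjusted p = 4.9e-05), and in both comparisons the arrays did not overlap. In order of level, 150 to 240 min and 60 to 120 min came first with overlapping arrays, then 300 to 420 min, 480 to 720 min and 0 to 45 min, each overlapping the next. In these bulk samples a change in the number of cells that express a gene and a change of RNA per cell cannot be told apart. The mean level of the endothelial and mural list, where Klf4 is also known to be expressed, was 6.50 to 6.51 on the arrays of 60 to 120 min, 6.47 to 6.53 at 150 to 240 min, 6.39 to 6.46 at 300 to 420 min and 6.17 to 6.33 at 480 to 720 min, against 6.42 to 6.57 at 0 to 45 min. Its 3 genes above the filter were all lower at 480 to 720 min, with a median of -0.80 against 0 to 45 min and -0.84 against 60 to 120 min, and their part in the return of Klf4 was not tested.

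**Figure D1:**
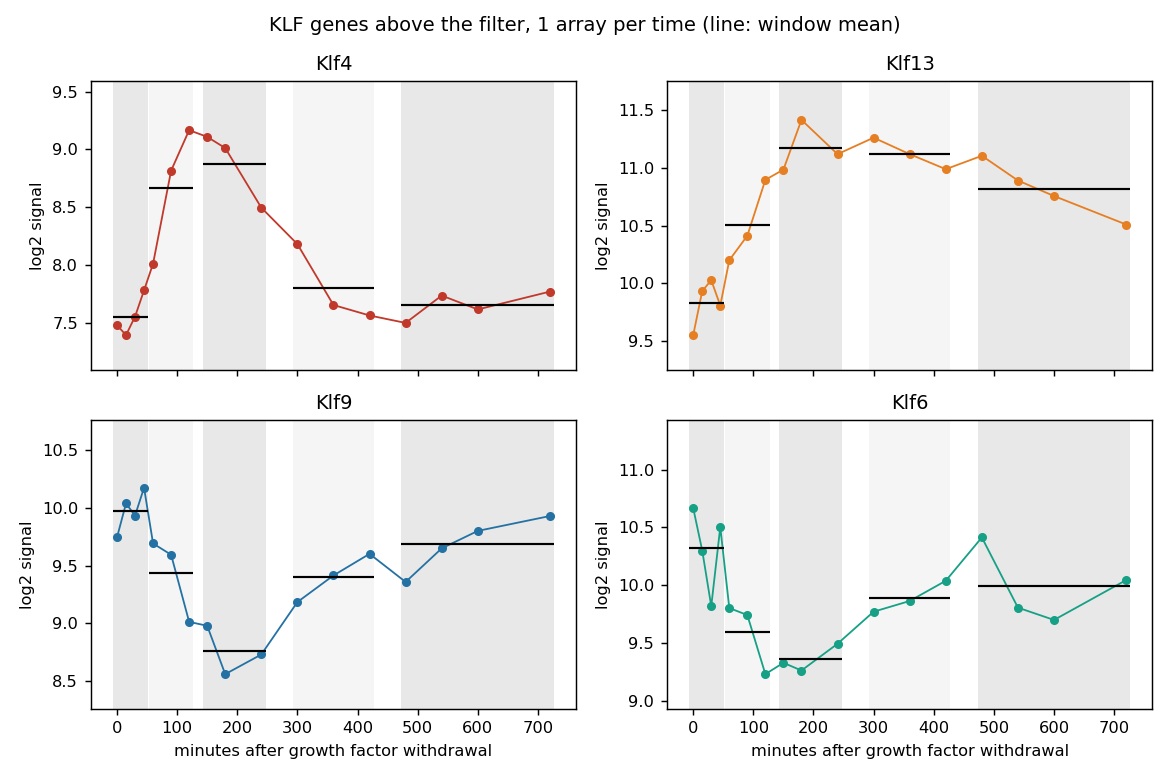
Log2 signal of Klf4, Klf13, Klf9 and Klf6 (y axis, 1 panel each) against minutes after growth factor withdrawal (x axis). Each point is 1 array, grey bands are the windows and black lines the window means. Klf4 peaks at 9.17 at 120 min and is back at 7.77 at 720 min, Klf13 is still at 10.51 at 720 min, and Klf9 and Klf6 dip to 8.56 at 180 min and 9.23 at 120 min.

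Klf6 is an activator known from injury responses, axon growth and oligodendrocyte development. Its log2 signal was 10.67, 10.30, 9.82 and 10.50 at 0, 15, 30 and 45 min, a span of 0.85 that is wider than the baseline spans of Klf4 (0.39), Klf9 (0.43) and Klf13 (0.48). At 60, 90 and 120 min it was 9.80, 9.74 and 9.23, and at 150, 180 and 240 min it was 9.33, 9.26 and 9.49. These 6 arrays lay below all 4 baseline arrays, although at 60 min only just below the array at 30 min. From 300 min the signal ran back through 9.77, 9.86 and 10.04 at 300, 360 and 420 min to 10.41, 9.81, 9.70 and 10.04 at 480, 540, 600 and 720 min. Both later windows overlapped the baseline arrays.

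The mean of Klf6 was 9.59 ± 0.31 at 60 to 120 min, against 10.32 ± 0.37 at 0 to 45 min (SD over 3 and 4 arrays), a log2 change of -0.73 (SE 0.18, adjusted p = 0.027). This early call depended on single arrays, and it was lost when the array at 0 min (-0.62, adjusted p = 0.111), 15 min (-0.74, 0.057), 45 min (-0.67, 0.085), 90 min (-0.81, 0.069) or 120 min (-0.55, 0.328) was left out. At 150 to 240 min the change was -0.96 (SE 0.18, adjusted p = 0.00032), with a mean of 9.36 ± 0.12 (SD, 3 arrays), and this call was kept without any 1 array. In that window 8.85% of all features passed upward and 10.5% downward, while of the 4 KLF genes 2 rose and 2 fell. Klf6 did not pass at 300 to 420 min (-0.43, adjusted p = 0.059) or at 480 to 720 min (-0.33, adjusted p = 0.097). Without the array at 30 min, the lowest of the baseline, those changes were -0.60 (adjusted p = 0.0075) and -0.50 (adjusted p = 0.011), and without the array at 480 min they were -0.43 (adjusted p = 0.039) and -0.47 (adjusted p = 0.019). The late window stood 0.63 (SE 0.18) above 150 to 240 min, with an adjusted p of 0.0084. The order from high to low was 0 to 45, 480 to 720, 300 to 420, 60 to 120 and 150 to 240 min, with each window overlapping the next.

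Klf9 is a repressor that binds the corepressor Sin3A, and thyroid hormone and glucocorticoids are known to induce it. Its log2 signal was 9.74, 10.04, 9.93 and 10.17 at 0, 15, 30 and 45 min. At 60, 90 and 120 min it was 9.69, 9.59 and 9.01, and at 150, 180 and 240 min 8.98, 8.56 and 8.73. The lowest array, at 180 min, lay 1.41 below the baseline mean, a 2.66-fold fall. The signal was 9.18, 9.41 and 9.60 at 300, 360 and 420 min and 9.36, 9.65, 9.80 and 9.93 at 480, 540, 600 and 720 min, so that only the last window reached back among the baseline arrays.

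At 60 to 120 min Klf9 averaged 9.43 ± 0.37, against 9.97 ± 0.18 at 0 to 45 min (SD over 3 and 4 arrays), and the change of -0.54 did not pass (SE 0.16, adjusted p = 0.088) although the arrays did not overlap. Without the array at 60 min it was -0.67 (adjusted p = 0.033). The change was -1.22 (SE 0.16, adjusted p = 5.8e-06) at 150 to 240 min, where the mean was 8.76 ± 0.21 (SD, 3 arrays). At 300 to 420 min it was -0.57 (SE 0.16, adjusted p = 0.0067). In that comparison 18.8% of all features passed upward and 20.2% downward, and of the 4 KLF genes Klf13 rose and Klf9 fell. At 480 to 720 min the change of Klf9 was -0.29 (95% interval -0.60 to 0.02, adjusted p = 0.11). The late window stood 0.93 (SE 0.16) above 150 to 240 min (adjusted p = 0.00011), and the arrays did not overlap. In order of level 0 to 45 min came first, then 480 to 720, 60 to 120 and 300 to 420 min, each overlapping the next. The window of 150 to 240 min was lowest and overlapped none.

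Klf13 is the nearest relative of Klf9 in sequence among these genes, also binds Sin3A, and is known from T lymphocytes and the developing heart. Its log2 signal was 9.55, 9.93, 10.03 and 9.81 at 0, 15, 30 and 45 min and 10.20, 10.41 and 10.90 at 60, 90 and 120 min. At 150, 180 and 240 min it was 10.99, 11.42 and 11.12, and at 300, 360 and 420 min 11.26, 11.12 and 10.99. The values at 480, 540, 600 and 720 min were 11.10, 10.89, 10.76 and 10.51. Every array from 60 min on was above every baseline array, and the highest, at 180 min, stood 1.59 (3.00-fold) above the baseline mean.

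The mean of Klf13 was 10.50 ± 0.36 at 60 to 120 min, against 9.83 ± 0.21 at 0 to 45 min (SD over 3 and 4 arrays), a change of 0.67 (SE 0.16, adjusted p = 0.020). This call was lost without the array at 0 min (0.58, adjusted p = 0.086), 90 min (0.72, 0.068) or 120 min (0.48, 0.296). The later calls were kept without any 1 array. They were 1.34 (SE 0.16, adjusted p = 1.1e-06) at 150 to 240 min and 1.29 (SE 0.16, adjusted p = 6.6e-07) at 300 to 420 min. At 480 to 720 min Klf13 averaged 10.82 ± 0.25 (SD, 4 arrays), a change of 0.99 (SE 0.15, adjusted p = 4.9e-06). It was the only one of the 4 KLF genes to pass in that window, where 26.7% of all features passed upward and 25.9% downward. With array weights, or without the array at 30 or 480 min, Klf6 passed there as well. The late mean of Klf13 lay 0.36 below that of 150 to 240 min, which did not pass (adjusted p = 0.082), except without the array at 480 min (-0.45, adjusted p = 0.032). The order from high to low was 150 to 240, 300 to 420, 480 to 720 and 60 to 120 min, each overlapping the next, with 0 to 45 min lowest and apart.

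**Figure D2:**
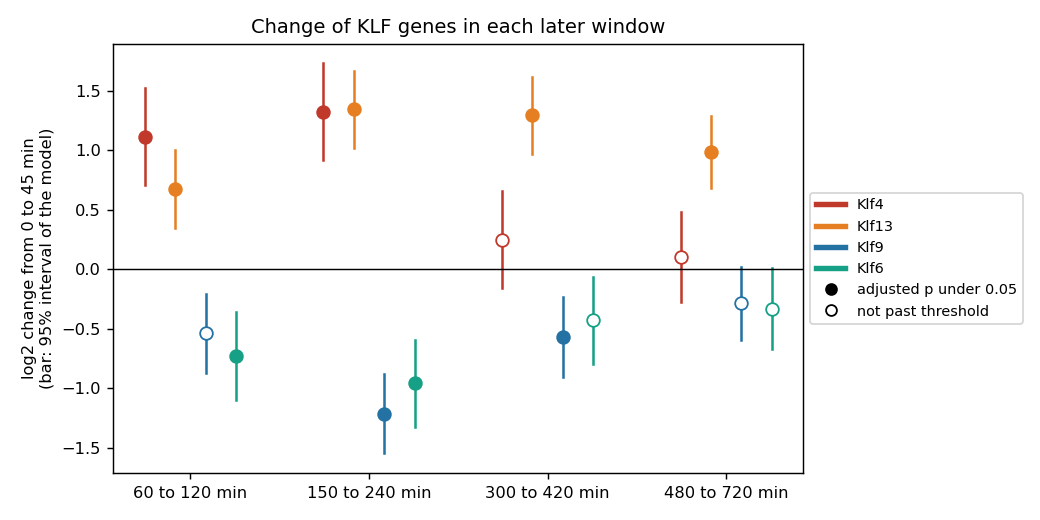
Log2 change of Klf4, Klf13, Klf9 and Klf6 in each later window against 0 to 45 min (y axis) by window (x axis), with 95% intervals from the model. Filled points passed at an adjusted p under 0.05. At 150 to 240 min all 4 are filled, with Klf4 at 1.32, Klf13 at 1.34, Klf9 at -1.22 and Klf6 at -0.96, and at 480 to 720 min only Klf13 is, at 0.99.

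The 4 genes thus differed in how long they stayed away from baseline. Klf4 was past the midpoint of its largest departure on 5 arrays, from 90 to 240 min, and its mean at 480 to 720 min kept 6.39% of that departure. Klf9 was past its midpoint on 5 arrays, from 120 to 300 min, and Klf6 on 7, from 90 to 300 min and again at 600 min. Klf13 was past its midpoint on 10 arrays in a row, from 120 to 600 min. The mean at 480 to 720 min kept 62.1% of the departure in Klf13, 30.4% in Klf6 and 20.4% in Klf9. Between 480 to 720 min and 60 to 120 min, Klf4 alone of the 4 passed, downward, where 22.3% of all features were higher and 21.8% lower. Between 480 to 720 min and 150 to 240 min, Klf9 and Klf6 were higher and Klf4 lower, where 18.1% of all features were higher and 16.5% lower. Differences between genes in their course were not tested.

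Across the 17 arrays the log2 signals of Klf6 and Klf9 correlated at r = 0.72 and those of Klf4 and Klf13 at r = 0.43. Klf4 ran against Klf6 (r = -0.80) and Klf9 (r = -0.74), and Klf13 ran against Klf9 (r = -0.77) and Klf6 (r = -0.64). All arrays belong to 1 time series, so these coefficients describe shared timing.

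The named genes whose pattern over the 17 arrays was most like each member were found by Pearson correlation of log2 signals. For Klf4 they were Fzd5 (r = 0.955), a Wnt receptor, Pacsin1 (0.944), an endocytic adaptor of neurons, and Herpud1 (0.942), a component of endoplasmic reticulum degradation that is induced by stress. For Klf13 they were Arntl (0.962), the circadian transcription factor also called BMAL1, Serpinh1 (0.958), a collagen chaperone, and Zfp346 (0.952), a zinc finger protein that binds RNA. For Klf9 they were Tgfbr2 (0.922), the type II TGF-beta receptor, Mob3a (0.921), a kinase adaptor of the MOB family, and Nfatc1 (0.919), a transcription factor activated by calcineurin. For Klf6 they were Zbtb10 (0.879), a zinc finger repressor, Hyal2 (0.875), a hyaluronidase, and Vps26c (0.868), a subunit of the retriever complex. The log2 signal of Fzd5 ran between 8.37 and 10.42 and that of Tgfbr2 between 8.95 and 11.13, while Zfp346 moved over a narrow range of 8.07 to 8.62.

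**Figure D3:**
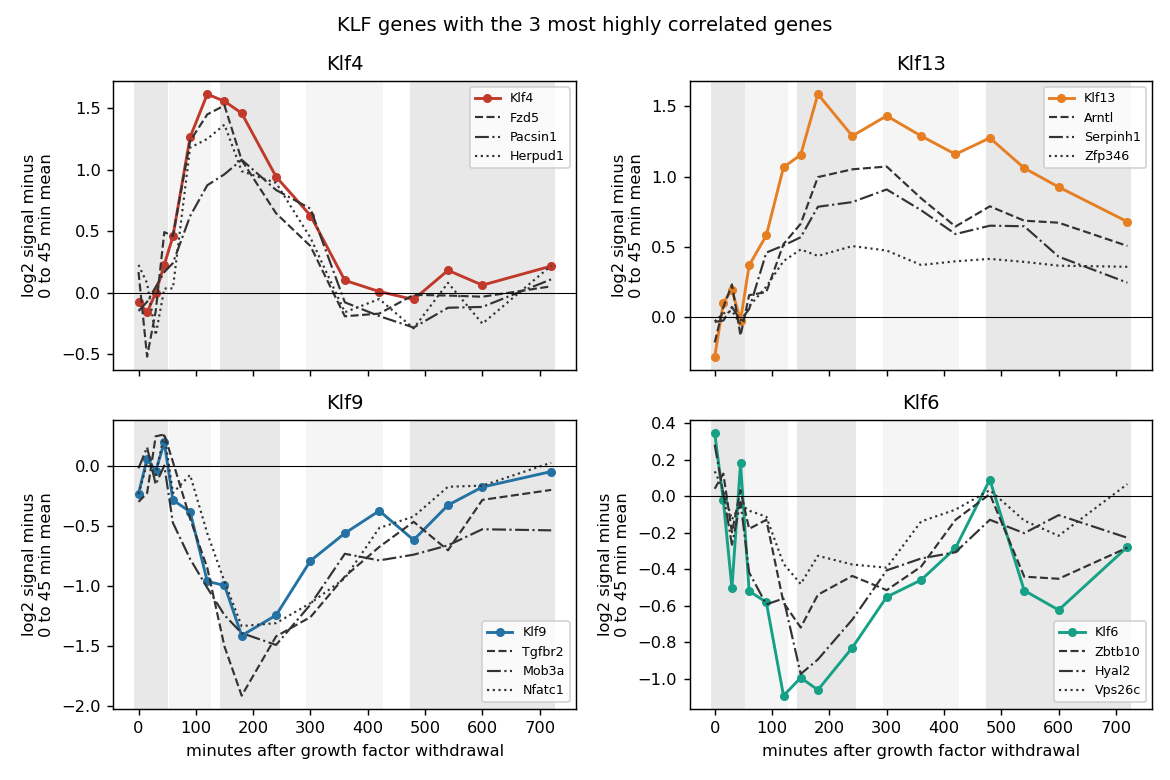
Log2 signal minus the mean of 0 to 45 min (y axis) against minutes (x axis) for Klf4, Klf13, Klf9 and Klf6, 1 panel each, with the 3 named genes of highest correlation over 17 arrays. Fzd5 follows Klf4 up and back (r = 0.955), Arntl follows Klf13 (r = 0.962), and Tgfbr2 follows Klf9 through its dip (r = 0.922).

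Klf2, Klf10 and Klf15 had mean log2 signals of 6.04, 5.89 and 6.27, below the filter, and without detection p-values a signal this low cannot be told from background. Klf2 is the flow-induced KLF of endothelium and a quiescence factor of T cells. Its log2 signal was 6.22, 6.05, 5.87 and 6.32 at 0, 15, 30 and 45 min, 6.29, 6.01 and 6.09 at 60, 90 and 120 min, and 5.93, 5.81 and 5.82 at 150, 180 and 240 min. It was 5.92, 6.01 and 6.09 at 300, 360 and 420 min and 5.77, 5.93, 6.08 and 6.42 at 480, 540, 600 and 720 min. The highest array was the last, and no window stood apart from the baseline. In the same models without the filter, where 32.6% of 19854 features passed over the time course, Klf2 had an adjusted p of 0.047. Leaving out 1 array at a time moved it between 0.010 and 0.249, and it missed the threshold in 10 of 17 cases, by most without the array at 720 min. In no window did Klf2 pass, with a change of -0.26 (adjusted p = 0.18) at 150 to 240 min.

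Klf15 is known as a glucocorticoid-induced regulator of amino acid and glucose metabolism in liver and muscle. Its log2 signal lay between 5.93 and 6.46 on every array but that of 720 min, which stood at 6.87. It averaged 6.40 ± 0.35 at 480 to 720 min, against 6.12 ± 0.19 at 0 to 45 min (SD, 4 arrays each). The change of 0.28 did not pass (limma adjusted p = 0.068). Over the time course its adjusted p was 0.15, and leaving out 1 array at a time moved it between 0.0047, without the array at 600 min, and 0.36, without the array at 720 min. It passed in 1 of these 17 cases. Klf10, a TGF-beta-inducible repressor that also binds Sin3A, stayed between 5.67 and 6.24 on all arrays. Its window means lay between 5.83 and 5.94, its time course adjusted p (moderated F test) was 0.87, and no window passed. No window comparison of these 3 genes passed, and over the time course only Klf2 did, in a call that depended on single arrays. This does not show that their RNA was absent or steady.

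**Figure D4:**
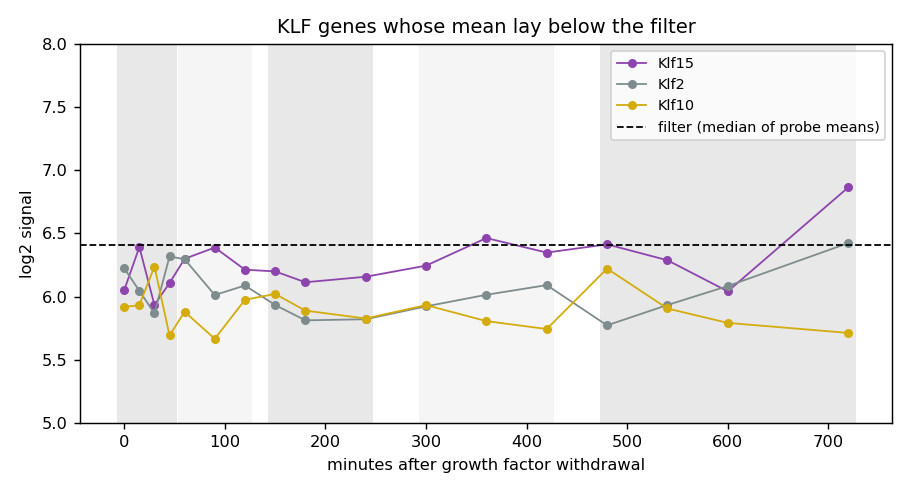
Log2 signal of Klf15, Klf2 and Klf10 (y axis) against minutes (x axis), 1 point per array, with the filter at 6.41 as a dashed line. Nearly all points lie below that line, and the highest is Klf15 at 720 min, at 6.87.

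Other genes of the KLF and SP families share the zinc fingers, and of 16 with a probe, 7 lay above the filter. At 60 to 120 min limma called 0 of these 7 (2 higher and 2 lower at an unadjusted p under 0.05). At 150 to 240 min Sp4 (0.43, adjusted p = 0.0077) and Sp8 (0.43, adjusted p = 0.015) rose, while Klf12 (-0.32, adjusted p = 0.020) and Klf16 (-0.53, adjusted p = 0.0092) fell. The median change of the 7 was 0.05, against 0.00 for all features, of which 8.85% passed upward and 10.5% downward. At 480 to 720 min Klf7 and Sp4 rose and Klf12, Klf16 and Sp1 fell, with a median of -0.25 against 0.00 for all features. In that window 26.7% of all features passed upward and 25.9% downward, so 5 calls among 7 genes are near the background.

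Klf7 promotes axon growth and is the nearest relative of Klf6. Its log2 signal averaged 11.15 ± 0.32 at 480 to 720 min, against 10.59 ± 0.20 at 0 to 45 min (SD, 4 arrays each), a change of 0.56 (SE 0.15, adjusted p = 0.0025). The late arrays read 10.85, 11.14, 11.02 and 11.59, above all 4 baseline arrays (10.81, 10.67, 10.33 and 10.55). Klf7 also stood 0.90 (SE 0.16) above its level at 60 to 120 min (adjusted p = 5.7e-05). Klf16, another Sin3A-binding repressor, averaged 7.83 ± 0.13 at 480 to 720 min, against 8.59 ± 0.09 at 0 to 45 min (SD, 4 arrays each), a change of -0.75 (SE 0.13, adjusted p = 3.9e-05). Its values were lower on every array from 300 min on than on any of the first 4. Klf12, a repressor that binds CtBP, was lower by 0.44 at 300 to 420 min (adjusted p = 0.00076) and by 0.39 at 480 to 720 min (adjusted p = 0.00072). Sp4, an SP factor of neurons, kept its rise at 480 to 720 min (0.34, adjusted p = 0.0085), while Sp1, the widely expressed SP factor, was lower by 0.25 there (adjusted p = 0.040). Klf5, known from gut epithelium, passed over the time course (adjusted p = 0.0066) and, among the window comparisons, only between 480 to 720 min and 60 to 120 min (-0.47, adjusted p = 0.0064). Of the 9 below the filter, Sp9, an SP factor of forebrain interneurons, was the only one past the threshold in a window comparison of the fit without the filter. Its late arrays read 6.52, 6.47, 6.60 and 6.57, against 5.76, 5.79, 6.09 and 6.01 at 0 to 45 min, a change of 0.63 (adjusted p = 8.6e-07) at a dim signal.

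**Figure D5:**
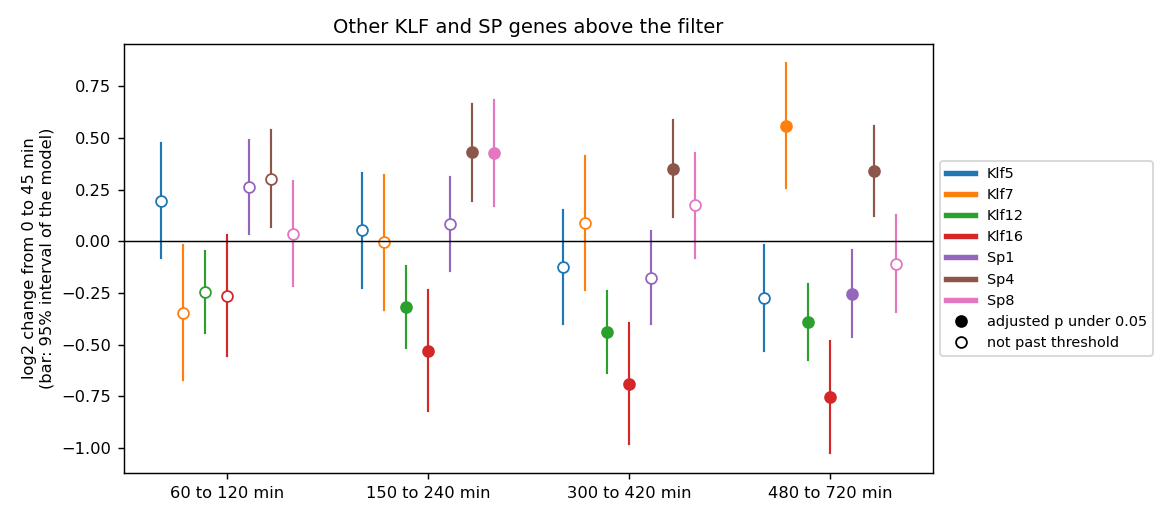
Log2 change of the 7 other KLF and SP genes above the filter in each later window against 0 to 45 min (y axis) by window (x axis), with 95% intervals from the model and filled points at an adjusted p under 0.05. Klf7 is highest in the last window (change 0.56 at 480 to 720 min) and Klf16 lowest (-0.75).

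The corepressors through which Klf9, Klf13, Klf12 and Klf3 are known to act were measured too. Of 10 KLF cofactors above the filter, limma called 0 at 60 to 120 min (also 0 at an unadjusted p under 0.05), and 1 was higher and 3 lower at 150 to 240 min. Among all features 1.15% passed upward and 0.986% downward at 60 to 120 min, and 8.85% and 10.5% at 150 to 240 min. Sin3a averaged 9.23 ± 0.30 at 150 to 240 min, against 9.93 ± 0.17 at 0 to 45 min (SD over 3 and 4 arrays), a change of -0.70 (adjusted p = 0.00054). Ctbp2, a corepressor bound by Klf3 and Klf12, fell by 0.62 in that window (adjusted p = 0.00042) and by 0.67 at 480 to 720 min (adjusted p = 1.7e-05). Fbxw7, a ubiquitin ligase subunit known to target the Klf2 and Klf5 proteins, rose by 0.49 at 150 to 240 min (adjusted p = 0.042). The acetyltransferase Ep300 rose by 0.46 at 480 to 720 min (adjusted p = 0.014). The median change of the 10 was 0.02 at 150 to 240 min and 0.01 at 480 to 720 min, close to that of all features.

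Klf2 and Klf4 are known targets of the MEK5-ERK5 kinase cascade and its MEF2 factors. Of 8 genes listed for this cascade, 6 were on the array, and Mapk7 (ERK5, 6.08) and Mef2d (6.19) lay below the filter. Of the 4 above it, limma called 0 at 60 to 120 min (also 0 at an unadjusted p under 0.05), where 1.15% of all features passed upward and 0.986% downward. Kinase activity was not measured, and the part of the cascade in the change of Klf4 was not tested. Mef2b rose by 0.64 at 150 to 240 min (adjusted p = 0.00014) and by 0.48 at 300 to 420 min (adjusted p = 0.0011), and Mef2c by 0.87 at 300 to 420 min (adjusted p = 0.0012).

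Klf4, Klf6 and Klf10 are also known as immediate early genes of growth factor signalling. Of 10 other immediate early genes above the filter, 8 fell and 0 rose at 60 to 120 min, with a median of -1.09, and 8 fell and 0 rose at 150 to 240 min (limma; the counts at an unadjusted p under 0.05 were the same). Klf6 fell with them, and Klf4 did not. Over all features 1.15% passed upward and 0.986% downward at 60 to 120 min, and 8.85% and 10.5% at 150 to 240 min. The baseline was set with earlier results on growth factor response genes known. These counts are therefore a description only. Egr1 averaged 9.36 ± 0.55 at 60 to 120 min, against 12.99 ± 0.34 at 0 to 45 min (SD over 3 and 4 arrays), a change of -3.62 (SE 0.24). Dusp6, a phosphatase induced by ERK signalling, changed by -3.91 (SE 0.34), and Ier3 and Egr4 by -1.75 and -1.57.

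FOXO factors, held out of the nucleus by growth factor signalling, are known regulators of Klf2 and Klf4 in lymphocytes. Of 12 FOXO genes and targets above the filter, 3 rose and 1 fell at 60 to 120 min, and 8 rose and 1 fell at 480 to 720 min, with medians of 0.32 and 1.74. Over all features 1.15% passed upward in the early window and 26.7% in the late one, with 0.986% and 25.9% downward. The FOXO target Bcl2l11 rose by 1.31 (SE 0.22) at 60 to 120 min. At 480 to 720 min Bcl2l11 was higher by 2.12 and Ccng2 by 2.37. Fbxo32 averaged 8.80 ± 0.03 there, against 6.15 ± 0.17 at 0 to 45 min (SD, 4 arrays each). That baseline lay below the filter, so the size of its rise is not given. Fbxo32 met the filter only through its later, higher arrays. Its place among the rising genes in these counts and medians was thus favoured by the filter. Irs2, also a known FOXO target, was lower by 2.27 at 60 to 120 min. The part of FOXO factors in the changes of the KLF genes was not tested.

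Glucocorticoid response genes, the class to which Klf9 and Klf15 belong in other tissues, moved both ways. Of 12 above the filter, 2 rose and 2 fell at 60 to 120 min, and 4 rose and 2 fell at 480 to 720 min, with medians of 0.17 in both windows. Of all features 1.15% passed upward and 0.986% downward at 60 to 120 min. In the late window 26.7% passed upward and 25.9% downward, so its counts do not stand apart. Ddit4 rose by 1.91 (SE 0.19) and Sgk1 fell by 1.21 (SE 0.24) at 60 to 120 min, while Fkbp5 changed by -0.05 there (adjusted p = 0.90) and fell by 1.22 at 480 to 720 min (SE 0.11). Dusp1, a member of this list and of the immediate early list, fell by 0.89 (SE 0.15) at 60 to 120 min.

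Of 12 TGF-beta and SMAD genes above the filter, the pathway known for inducing Klf10, 3 rose and 0 fell at 60 to 120 min (4 and 1 at an unadjusted p under 0.05 in limma), and 2 rose and 2 fell at 150 to 240 min. Among all features 1.15% passed upward and 0.986% downward at 60 to 120 min, and 8.85% and 10.5% at 150 to 240 min. Tgfbr2 averaged 9.25 ± 0.26 at 150 to 240 min, against 10.87 ± 0.30 at 0 to 45 min (SD over 3 and 4 arrays), a change of -1.61 (adjusted p = 1.1e-06), in the same window in which Klf9 was lowest. Tgif1, a SMAD corepressor, rose by 0.58 at 60 to 120 min (adjusted p = 0.038) and by 1.13 at 300 to 420 min. The BMP-induced genes Id1 and Id2 rose by 0.79 and 0.72 at 60 to 120 min.

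Of 6 reported KLF target genes above the filter, limma called 0 at 60 to 120 min (1 higher and 0 lower at an unadjusted p under 0.05), and 1 rose and 1 fell at 150 to 240 min. The shares of all features passing were 1.15% upward and 0.986% downward at 60 to 120 min, and 8.85% and 10.5% at 150 to 240 min. Cdkn1a, the cell cycle inhibitor p21 and a known target of Klf4 and Klf6, averaged 12.72 ± 0.16 at 150 to 240 min, against 11.83 ± 0.11 at 0 to 45 min (SD over 3 and 4 arrays). The change was 0.89 (SE 0.18, adjusted p = 0.00084), and at 480 to 720 min it was 0.19 (adjusted p = 0.35). Ccnd1, cyclin D1, fell by 1.04 (SE 0.15) at 150 to 240 min and by 2.09 (SE 0.14) at 480 to 720 min. The branched-chain aminotransferase Bcat2, a known Klf15 target in muscle, rose by 0.36 at 480 to 720 min (adjusted p = 0.0058), and the proline dehydrogenase gene Prodh fell by 0.31 at 300 to 420 min (adjusted p = 0.030).

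Markers of other neural cells were counted in the same windows. Of 6 oligodendrocyte lineage markers above the filter, 0 rose and 1 fell at 60 to 120 min (limma; the counts at an unadjusted p under 0.05 were the same), 3 rose and 2 fell at 150 to 240 min, and 4 rose and 0 fell at 480 to 720 min. The mean level of the 9 on the array was 7.38 to 7.52 at 60 to 120 min, 7.48 to 7.82 at 150 to 240 min and 8.12 to 8.29 at 480 to 720 min, against 7.62 to 7.64 at 0 to 45 min. Of 6 astrocyte markers above the filter, limma called 0 at 60 to 120 min (1 lower at an unadjusted p under 0.05). At 150 to 240 min 1 rose and 0 fell. At 480 to 720 min 2 rose and 2 fell, with a median change of 0.05. The mean level of the 8 on the array was 8.40 to 8.82 in that last window, against 8.09 to 8.13 at 0 to 45 min. Over all features 1.15%, 8.85% and 26.7% passed upward at 60 to 120, 150 to 240 and 480 to 720 min. The shares downward were 0.986%, 10.5% and 25.9%. Markers such as Mbp and Gfap had arrays below the filter (lowest 5.82 and 6.18) and entered the marker counts through their brighter arrays. The 9 neuron markers, of which 2 lay above the filter, had a mean of 7.15 to 7.21 at 150 to 240 min and 7.16 to 7.19 at 480 to 720 min, against 7.02 to 7.06 at 0 to 45 min. The part of cell composition in the changes of Klf4, Klf6, Klf9 and Klf13, or of Klf7 and Klf16, was not tested.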

How the data were processed

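Total RNA of 17 samples, 1 per time, was amplified and biotin-labelled with the Illumina TotalPrep kit, per the labels' protocols. The deposited values were read as log2 bead signals from their range of 5.14 to 15.47. How the authors normalized the signals, corrected background and read the scanner is not given in the sources used here, and no detection p-value was used. Array medians lay between 6.40 and 6.42, and the lowest correlation between 2 arrays was 0.972, so no further scaling was done. The number of arrays limits the precision.

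Of 19949 probes, 18351 had 1 gene symbol, 0 had several and 1598 had none. Symbols from the platform annotation were updated through gene identifiers (16482 probes) or accessions (956) with the RefSeq gene table, which changed 305, and 913 were kept as given. The brightest probe stood for a gene with several. Features with a mean of at least 6.41 (9940) were tested with limma 3.58.1 in R 4.3.3 (lmFit, eBayes with trend), with Benjamini-Hochberg adjustment over all of them and a threshold of 0.05. The windows formed 1 model, and the time course was fitted with a natural spline (4 degrees of freedom) over square-root minutes. The array at 60 min was kept out of the baseline because earlier results had shown growth factor response genes already changed there. Members below the filter were tested in the same models on 19854 features. The procedure was tested on simulated data.

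The members, windows and gene lists were chosen with earlier results of these data known. The genes named were all listed KLF genes, every other KLF or SP gene past the threshold in a window comparison, up to 4 genes per list with the largest change against 0 to 45 min, and the 3 named features most correlated with each member above the filter. Lists were described by counts and medians with no set test, and some genes are in more than 1 list. Alternatives covered scaling, the filter, the variance model, array weights, the probe choice, the curve, the baseline, the window limits and leaving out each array in turn. Leaving out arrays for Klf2 and Klf15 over the time course was added after seeing the data.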

Additional observations from a re-analysis of the deposited data

How the results depend on the processing

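The calls of Klf4 at 60 to 120 min, of Klf4, Klf6, Klf9 and Klf13 at 150 to 240 min, of Klf13 in the 3 windows from 150 min on, and of all 4 over the time course held under every alternative run. Averaging probes could not change the signals of these genes, which have 1 probe each. Scaling could change little, as array medians already lay between 6.40 and 6.42. In the 60 to 120 min comparison, without 1 array at a time, between 1 and 4 KLF genes passed (3 as reported), with 1 without the array at 0, 90 or 120 min. Over all features it made 212 calls as reported, 61 without the array at 120 min, 85 without 90 min, 139 without 0 min and 353 without 60 min. It made 494 calls with array weights, 321 with a baseline of 0 to 60 min and 1145 with windows of 0 to 60 and 90 to 180 min. With limits of 0 to 60, 90 to 180, 240 to 360 and 420 to 720 min, 4 KLF genes passed at 240 to 360 min in place of 2, and the late change of Klf4, which had not passed at 0.10, was -0.0071. At 480 to 720 min 2 passed with array weights in place of 1, and between 1 and 2 without 1 array at a time. Against 60 to 120 min the late window had 2 with array weights in place of 1, and again between 1 and 2 without 1 array at a time, with 2 without 30, 120, 600 or 720 min. The causes of these shifts were not tested. No paired analysis was possible because the labels carry no replicate numbers. With 1 array a time and no detection p-value, the signals of dim members such as Klf2, Klf10 and Klf15 could not be told from background.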
